A study of Mus musculus with 16 samples.

Results

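Interferon stimulated genes are described here across lung, peritoneal and bone marrow derived macrophage samples of the mouse. The 40 genes were taken by name from a list, and all 40 were found among the 47643 genes of the count files after the Ensembl identifiers were named with GENCODE M21. The samples were 16 libraries from C57BL/6 wild type mice with no stated treatment. BALF denotes bronchoalveolar lavage cells, PLF peritoneal lavage cells, BMDM bone marrow derived macrophages and mexAM alveolar macrophages cultured ex vivo, each with 1 library from each of mice 1, 2 and 4. The other 4 libraries were cultured alveolar macrophages of lavage pool 1 at passages 8 and 13 and of lavage pool 2 at passages 5 and 10. A pool combines lavages, and its later and earlier passages are not independent samples. The age and sex of the mice, the stage of the mexAM cultures and the culture media were not given in the sources used here.

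Type I interferons are secreted after a cell senses viral or displaced nucleic acid. They bind the receptor of Ifnar1 and Ifnar2, and the kinases Jak1 and Tyk2 then phosphorylate transcription factors, among them Stat2. Stat2 and Irf9 are parts of a complex that binds the interferon stimulated response element (ISRE) near many target genes. Targets of interferon gamma carry gamma activated sites (GAS). Many target genes keep a low basal level without infection, and alveolar macrophages meet inhaled virus early.

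The elements named above were looked for in the RefSeq promoter windows (build GRCm38.p6), which run from 250 bases before to 50 bases after a gene's start. Of the 40 genes, 29 had a window by symbol. Those with none were Mx1, Dhx58, Ly6e, Rtp4, Ifi27l2a, Parp14, Usp18, Oas2, Ifi204, Mx2 and Zbp1. The ISRE was searched as GAAA, any 2 bases and GAAA again on both strands. These letters were in 18 of the 29 genes (62.1%), against 3.99% of the 27025 genes with a window. The GAS letters TTCNNNGAA, which read alike on both strands, were in 9 of the 29 (31%), against 9.55% of all genes, and the 2 kinds of match overlapped in Ifitm3 and Bst2. A match is a description of the letters, not a measured binding site. The 250 bases before the start follow for genes whose levels took different courses in the lung samples. Isg15 and Ifit1 were near 0 in lung cells, Gbp7 rose in culture, and Slfn2 had a mean over 50 CPM in both BALF and mexAM. Each runs 5′ to 3′ in the direction of the gene, and capitals mark ISRE or GAS matches.
Isg15, chr4:156200819-156201068, minus strand: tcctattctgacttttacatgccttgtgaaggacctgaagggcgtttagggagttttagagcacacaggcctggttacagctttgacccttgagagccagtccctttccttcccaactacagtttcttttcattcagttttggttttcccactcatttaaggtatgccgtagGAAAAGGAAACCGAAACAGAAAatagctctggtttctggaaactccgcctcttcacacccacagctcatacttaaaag
Ifit1, chr19:34640639-34640888, plus strand: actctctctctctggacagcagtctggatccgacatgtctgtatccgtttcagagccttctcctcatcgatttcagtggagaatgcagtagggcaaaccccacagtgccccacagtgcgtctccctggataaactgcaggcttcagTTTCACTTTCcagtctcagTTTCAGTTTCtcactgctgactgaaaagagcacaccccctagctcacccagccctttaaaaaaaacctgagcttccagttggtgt
Gbp7, chr3:142530086-142530335, plus strand: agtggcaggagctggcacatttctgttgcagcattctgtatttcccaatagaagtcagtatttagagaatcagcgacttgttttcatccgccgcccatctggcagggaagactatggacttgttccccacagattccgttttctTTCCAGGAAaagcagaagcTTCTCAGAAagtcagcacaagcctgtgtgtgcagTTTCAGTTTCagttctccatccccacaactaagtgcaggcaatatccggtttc
Slfn2, chr11:83064862-83065111, plus strand: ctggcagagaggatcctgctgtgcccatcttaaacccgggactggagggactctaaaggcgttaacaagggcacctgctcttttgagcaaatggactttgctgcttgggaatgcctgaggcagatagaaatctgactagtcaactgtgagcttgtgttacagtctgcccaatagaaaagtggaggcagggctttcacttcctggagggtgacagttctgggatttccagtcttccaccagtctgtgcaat
Isg15 held 3 overlapping ISRE matches that begin at -78, -72 and -66 from the start, and Ifit1 held 2, at -104 and -85. Gbp7 held 1 ISRE match at -53 and 2 GAS matches at -106 and -87. Samhd1, the only gene with its highest group mean in BALF, held a single GAS match, at -235, and Slfn2 held neither set of letters. The GENCODE model of Samhd1 starts further upstream than the RefSeq start, and its bases are not printed. That of Ifit1 also starts upstream of the RefSeq start, so the last printed bases of Ifit1 lie inside the GENCODE gene. Across the genes, the match did not separate those that were near 0 in lung cells from the rest. Of the 14 with a window and under 5 CPM in both BALF and mexAM, 8 held the ISRE letters, as did 10 of the other 15.

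The libraries held between 827791 and 2884679 counts in genes, of which 659 to 14562 fell in the 40 genes. Levels are given as CPM, the count divided by the library total and multiplied by 1e+06, on totals scaled by the trimmed mean of M values (TMM), and 1 count was worth 0.347 to 1.21 CPM before that scaling. The labels were checked against defining markers. Siglecf, a surface marker of alveolar macrophages, stood at 249.5 to 697 CPM in the 10 lung-derived libraries and at 11.5 CPM or lower in PLF and BMDM, and Gata6, a factor of peritoneal macrophages, was at 46.1 to 56.7 CPM in PLF and at 0 elsewhere. PLF was a mixed sample, with 2271 to 2684 CPM summed over 10 B cell markers and 1765 to 1952 CPM over 5 mast cell markers. In the lung-derived and BMDM libraries those sums were at most 129 and 4.12 CPM. In such bulk samples fewer cells of a type and less RNA per cell cannot be told apart, and the share of the PLF values that came from cells other than macrophages was not tested.

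The interferon stimulated genes were low in lung cells, whether fresh or cultured, and high in PLF and BMDM. Their levels summed to 1392, 1503 and 1320 CPM in BALF of mice 1, 2 and 4, to 753, 676 and 814 CPM in mexAM, to 2052, 4302 and 4583 CPM in PLF and to 6360, 6078 and 4892 CPM in BMDM. The 4 pool libraries lay between 774 and 862 CPM, beside mexAM and below BALF. No lung-derived library reached the lowest PLF library, and PLF did not overlap BMDM. Such a sum is carried by the most counted genes, so counts of genes are given as well. In 23 of the 40 genes all 10 lung-derived libraries lay below every PLF and BMDM library, a pattern held by 7.97% of the 10527 genes tested. In no member did all 10 lie above, against 6.57% of the tested genes. The BMDM mean was the highest of BALF, mexAM, PLF and BMDM for 33 genes, the PLF mean for Ifit1, Oasl1, Gbp2, Gbp3, Rsad2 and Isg20, and the BALF mean for Samhd1 alone. The mean was under 5 CPM in both BALF and mexAM for 20 genes, while all 40 were over 5 CPM in BMDM and 38 in PLF. Between 6 and 14 of the 40 genes had no count in a lung-derived library, and every one was counted in each BMDM library.

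**Figure D1:**
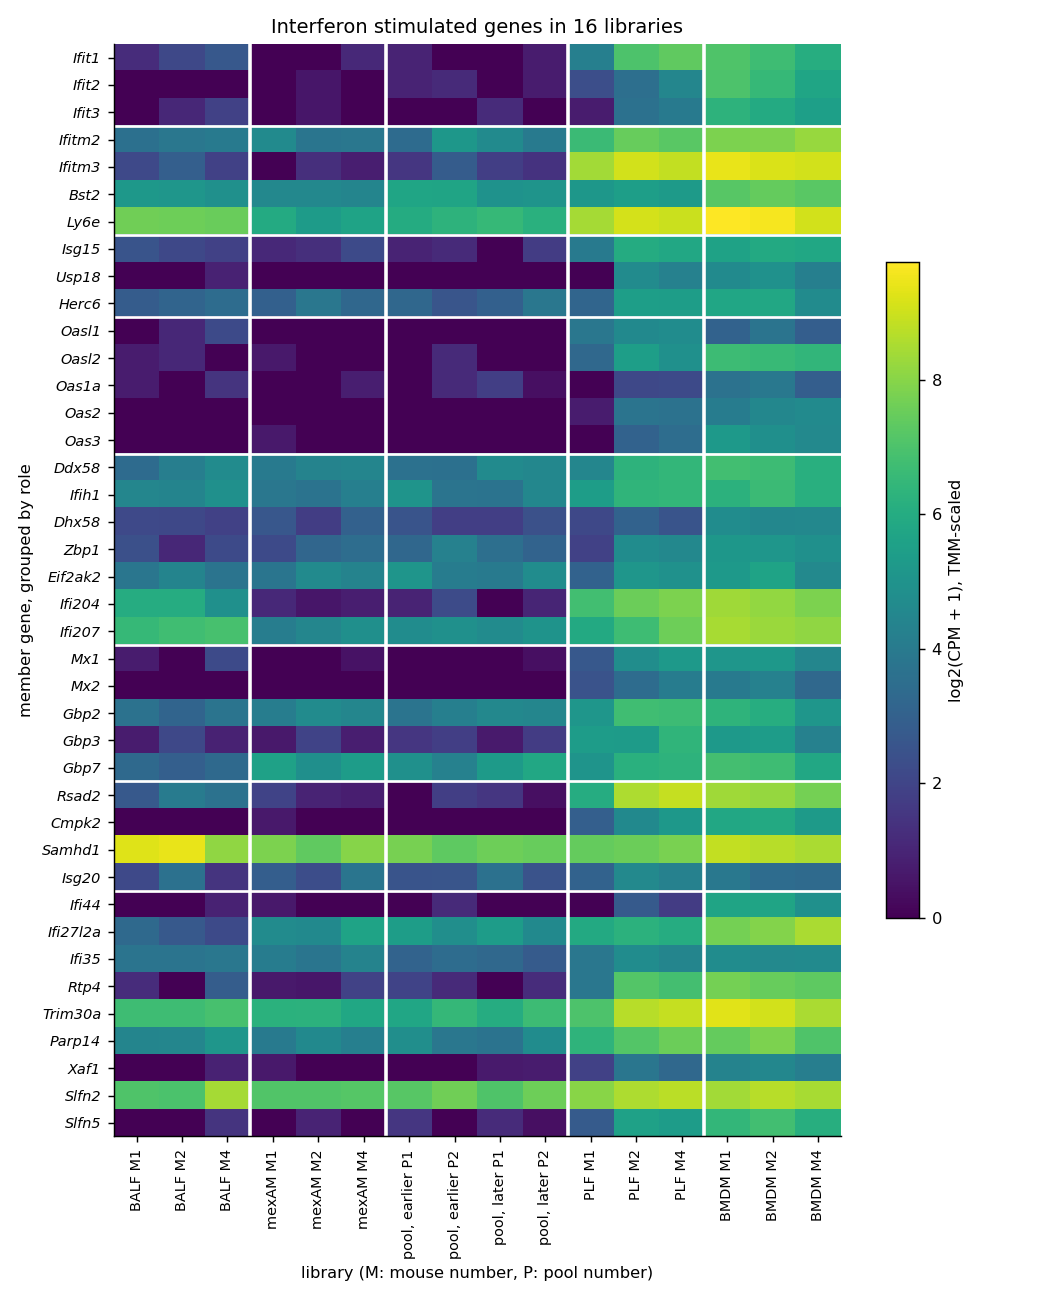
Level of the 40 interferon stimulated genes (rows, grouped by role) in 16 libraries (columns) as log2(CPM + 1). The 10 lung-derived columns on the left are dark for most genes, the 3 BMDM columns on the right are bright, and PLF of mouse 1 is darker than PLF of mice 2 and 4.

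Each pair of groups was compared with edgeR's quasi-likelihood test, with Benjamini-Hochberg adjustment over all genes tested and a threshold of 0.05. Against BMDM, mexAM were lower in 37 of the 40 genes, where 44.6% of all tested genes were called in either direction, 23.0% lower and 21.5% higher, and BALF were lower in 38, against 37.4% and 19.3%. Against PLF, mexAM were lower in 32 genes, against 57.9% of all genes called, 29.6% lower and 28.4% higher, and BALF were lower in 31 and higher in 1, against 40.3% called, 20.8% lower and 19.5% higher. The median log2 fold change over the 40 genes was -4.48 for mexAM minus BMDM and -3.66 for BALF minus BMDM, and -3.33 and -2.88 in the same order against PLF, where the median of all tested genes lay between -0.026 and -0.001. These pairs share libraries, so they are not independent of each other. With genes that had no count in 1 group set to their bound, the median became -4.28 for mexAM minus BMDM and -2.85 for BALF minus PLF. PLF were lower than BMDM in 16 genes and higher in 1 (42.5% of the 40), against 36.5% of all genes, 18.4% lower and 18.0% higher. Culture against fresh lung cells gave fewer calls. In mexAM minus BALF, 7 genes fell and 2 rose (22.5% of the 40, against 30.0% of all genes), and in pool cultures minus BALF 4 fell and 2 rose (15.0%, against 26.0%). Of the 40 genes, 11 had 3 counts or fewer in both mexAM and BALF and 8 in both pool cultures and BALF, so nothing is read from these shares. Both comparisons use the same BALF libraries.

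The Ifit proteins bind foreign RNA and block its translation. Ifit1 (ENSMUSG00000034459, chr19:34640871-34650009 of GRCm38, as all gene positions here, plus strand) was at 1.38, 3.38 and 5.39 CPM in BALF of mice 1, 2 and 4, and mexAM held 0, 0 and 1.18 CPM. In PLF it was at 17.4, 130 and 165 CPM, and in BMDM at 131, 105 and 65.9 CPM. Every lung library was below every PLF and BMDM library, and PLF of mouse 1 was far below the other PLF libraries. BALF were lower than BMDM by a log2 fold change of -4.94 ± 0.88 (SE, edgeR, adjusted p = 0.000724). The 3 counts of mexAM against 574 of BMDM gave a ratio of 219, with an exact 95% interval of 74.5 to 1064 for counting error. Ifit2 had no count in BALF and 51.8 to 128 CPM in BMDM, at least 108-fold lower in BALF when the BALF group is set to 3 counts. Ifit3 was at 44.1 to 77.7 CPM in BMDM and at most 2.69 CPM in any lung library.

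Ifitm2 and Ifitm3 are membrane proteins that restrict virus entry, Bst2 (tetherin) holds budding virions at the cell surface, and Ly6e is a surface protein that modulates infection. Ifitm3 was at 3.46, 6.76 and 2.69 CPM in BALF, at 0, 1.46 and 0.786 CPM in mexAM, at 334, 539 and 465 CPM in PLF and at 674, 580 and 534 CPM in BMDM. No lung library came near the lowest PLF library. The log2 fold change was -7.15 ± 0.36 for BALF minus BMDM (edgeR, adjusted p = 1.92e-10) and -6.73 ± 0.36 for BALF minus PLF (edgeR, adjusted p = 3.13e-10). Ifitm3 was also lower in mexAM than in BALF, by -2.27 ± 0.66 (edgeR, adjusted p = 0.0156), on levels of a few CPM. This call was lost without BALF of mouse 2 (-1.88, edgeR, adjusted p = 0.0766). With only the 2 compared groups fitted, Ifitm3 did not pass the filter on low counts and was not tested. Ifitm2, at 11.1 to 15.3 CPM in BALF and 12.7 to 24.6 CPM in mexAM, did not pass the test between fresh and cultured lung cells and was at 224 to 297 CPM in BMDM.

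Ly6e (chr15:74955051-74959905, plus strand) showed 3 steps. It was at 39.9 to 60.9 CPM in mexAM, at 196, 193 and 183 CPM in BALF, at 346, 554 and 500.03 CPM in PLF and at 854, 787 and 537 CPM in BMDM. The ranges of mexAM, BALF and PLF were apart from each other, while PLF and BMDM overlapped. It fell in mexAM against BALF by -1.93 ± 0.24 (edgeR, adjusted p = 1.49e-05) and in pool cultures, at 63.2 to 90.2 CPM, by -1.29 ± 0.25 (edgeR, adjusted p = 0.00101). Bst2 was at 36.0, 33.8 and 28.7 CPM in the BALF libraries of mice 1, 2 and 4 and 22.3, 22.4 and 20.4 CPM in mexAM, without overlap, a log2 fold change of -0.60 ± 0.21 (edgeR, adjusted p = 0.0378). This call was lost with the mouse as a replicate block (edgeR, adjusted p = 0.0529), with DESeq2 (adjusted p = 0.0642), and when any 1 of the 6 libraries other than BALF of mouse 4 was left out (edgeR, adjusted p = 0.0607 to 0.14). Library totals alone, no filter on low counts and fitting only the 2 compared groups ended it as well. The pool libraries, at 51.7 and 50.6 CPM in the earlier and 29.9 and 31.7 CPM in the later passages, lay above BALF in the earlier and within its range in the later passages. In BMDM, Bst2 was at 147 to 172 CPM and PLF, at 34.8 to 43.6 CPM, stayed beside BALF.

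Isg15 is a ubiquitin-like protein that is coupled to other proteins, Herc6 is a ligase for it in the mouse, and Usp18 removes it and restrains the interferon receptor. Isg15 (ENSMUSG00000035692, chr4:156199424-156200818, minus strand) was at 4.84, 3.38 and 2.69 CPM in BALF of mice 1, 2 and 4, whereas mexAM held 1.17, 1.46 and 3.54 CPM, and the 2 groups overlapped. In PLF it was at 14.7, 63.3 and 56.7 CPM, and in BMDM at 48.0, 59.6 and 54.1 CPM. The lung groups were clear of both others. The log2 fold change was -3.81 ± 0.53 for BALF minus BMDM (edgeR, adjusted p = 3.26e-05) and -4.56 ± 0.52 for mexAM minus BMDM (edgeR, adjusted p = 2.46e-06). Usp18 had no count in mexAM or the pools, 1 count in BALF, 0, 24.7 and 18.3 CPM in PLF of mice 1, 2 and 4, and 17.7 to 29.5 CPM in BMDM. It was at least 49.9-fold lower in mexAM than in BMDM. Herc6 kept a low level of 4.94 to 13.7 CPM in all 10 lung libraries and reached 25.3 to 55.7 CPM in BMDM, with log2 fold changes of -2.18 ± 0.49 for mexAM (edgeR, adjusted p = 0.00199) and -2.50 ± 0.55 for BALF (edgeR, adjusted p = 0.00225).

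The OAS enzymes make the oligoadenylate messenger that activates RNase L, and Oasl1 and Oasl2 are relatives. Over its 5 members the summed level was at most 5.39 CPM in any lung library, against 22.7 to 89.6 CPM in PLF and 145 to 175 CPM in BMDM. Oas2 had no count in any lung library, and in BMDM it was at 16.2, 21.6 and 24.1 CPM, at least 42.3-fold above mexAM and 23.1-fold above BALF. Oas3 was at 0 to 0.586 CPM in lung libraries and at 38.0, 28.2 and 22.9 CPM in BMDM, at least 35.2-fold above BALF. Oasl2 was at most 1.24 CPM in lung libraries and at 101.3, 92.3 and 84.7 CPM in BMDM, 162-fold above BALF (exact 95% interval 44.5 to 1338 for counting error). Oas1a was at most 2.54 CPM in lung libraries and at 11.8, 13.8 and 6.47 CPM in BMDM, 12.3-fold above BALF (interval 4.01 to 61.3). In each of these genes BMDM were clear of all lung libraries. Oasl1 went another way than the rest of the family. It was at 13.4, 23.8 and 25.4 CPM in PLF and at 7.42, 12.4 and 6.47 CPM in BMDM, without overlap, and was the only one of the 40 genes called higher in PLF than in BMDM (log2 fold change 1.26 ± 0.44, edgeR, adjusted p = 0.0346). That call was lost by DESeq2 (adjusted p = 0.0876) and when BMDM of mouse 1 or 4 or PLF of mouse 2 or 4 was left out (adjusted p = 0.101 to 0.142). Oasl1 was also called lower in mexAM, which had no count, than in BALF, which had 5. With mexAM set to 3 counts the ratio was 3.05, which leaves out the counting error of the 5. Leaving out any 1 of the 6 libraries but BALF of mouse 1 ended that call. So did library totals alone. With only the 2 compared groups fitted, Oasl1 did not pass the filter on low counts and was not tested.

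Several cytosolic sensors kept a measurable level in lung cells. Ddx58 (RIG-I), Ifih1 (MDA5) and Dhx58 (LGP2) recognise viral RNA, Eif2ak2 (PKR) is a kinase switched on by double stranded RNA, Zbp1 senses Z-form nucleic acid, and Ifi204 and Ifi207 belong to the DNA-binding p200 family. Ddx58 was at 9.68 to 25.1 CPM in BALF, 14.6 to 20.8 CPM in mexAM and 68.8 to 108 CPM in BMDM, and Ifih1 at 20.3 to 28.7, 12.2 to 17.3 and 68.8 to 99.5 CPM in the same order. Neither passed the test between fresh and cultured lung cells. Eif2ak2 was at 12.6 to 20.3 CPM in BALF, 12.9 to 24.3 CPM in mexAM and 22.9 to 49.1 CPM in BMDM. Its log2 fold change was -0.91 ± 0.41 for mexAM minus BMDM (edgeR, adjusted p = 0.0841) and -1.25 ± 0.45 for BALF minus BMDM (edgeR, adjusted p = 0.0406), the second call being lost without BALF of mouse 1 or 4 or BMDM of mouse 1 or 2 (adjusted p = 0.0868 to 0.148). Zbp1 and Dhx58, at 1.13 to 10.2 CPM in BALF and mexAM, were at 28.8 to 34.5 and 21.6 to 25.8 CPM in BMDM, and both were called lower in each lung group.

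The p200 genes parted from the RNA sensors in culture. Ifi204 (ENSMUSG00000073489, chr1:173747293-173766943, minus strand) was at 65.0, 64.2 and 28.7 CPM in BALF of mice 1, 2 and 4, whereas mexAM held 1.17, 0.487 and 0.786 CPM. The pool cultures held 0 to 3.71 CPM. All 7 cultured libraries were below every BALF library, and BALF of mouse 4 was the lowest of the fresh ones. The log2 fold change was -5.92 ± 0.52 for mexAM minus BALF (edgeR, adjusted p = 4.77e-07) and -5.50 ± 0.55 for pool cultures minus BALF (edgeR, adjusted p = 1.71e-06). Ifi204 reached 108 to 223 CPM in PLF and 222 to 328 CPM in BMDM. Ifi207 was at 89.9, 108 and 118 CPM in the BALF libraries of mice 1, 2 and 4 and 16.4, 21.4 and 27.9 CPM in mexAM, again without overlap, with log2 fold changes of -2.24 ± 0.35 (edgeR, adjusted p = 0.000185) and, for the pools at 24.8 to 31.4 CPM, -1.86 ± 0.37 (edgeR, adjusted p = 0.00138). In PLF, at 58.9, 103 and 190 CPM, Ifi207 overlapped BALF.

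The large GTPases differed from gene to gene. Functional Mx1 and Mx2 proteins block virus replication, and the guanylate binding proteins Gbp2, Gbp3 and Gbp7 act on vacuoles of microbes. RNA levels do not show whether the Mx proteins of this mouse strain are functional. Mx2, annotated as a polymorphic pseudogene, had no count in any lung library and 8.83 to 18.3 CPM in BMDM, at least 29.7-fold above mexAM. Mx1 was at most 3.59 CPM in a lung library, 5.35, 26.3 and 36.6 CPM in PLF and 34.1, 36.0 and 21.2 CPM in BMDM, and BALF minus BMDM was -4.32 ± 0.78 (edgeR, adjusted p = 0.000434). Gbp7 (ENSMUSG00000040253, chr3:142530342-142550149, plus strand) was at 8.99, 6.76 and 8.98 CPM in BALF, at 46.9, 28.2 and 40.9 CPM in mexAM and at 28.7 and 38.7 CPM in pool 1 and 18.5 and 56.1 CPM in pool 2, earlier passage first. Every cultured library was above every BALF library. Gbp7 rose by 2.20 ± 0.41 in mexAM against BALF (edgeR, adjusted p = 0.00085) and by 2.34 ± 0.43 in the pools (edgeR, adjusted p = 0.000605). Its level in PLF was 32.1, 72.4 and 77.3 CPM, and mexAM minus PLF did not pass the test (-0.64 ± 0.32, edgeR, adjusted p = 0.0994), a call gained without PLF of mouse 1. Gbp2 was at 7.88 to 12.6 CPM in BALF and 16.4 to 24.8 CPM in mexAM, without overlap but not called (0.94 ± 0.50, edgeR, adjusted p = 0.17). It was called with no filter on low counts and with only these groups fitted. Gbp3 stayed at 0.586 to 3.38 CPM in lung cells, against 39.5 to 81.5 CPM in PLF.

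**Figure D2:**
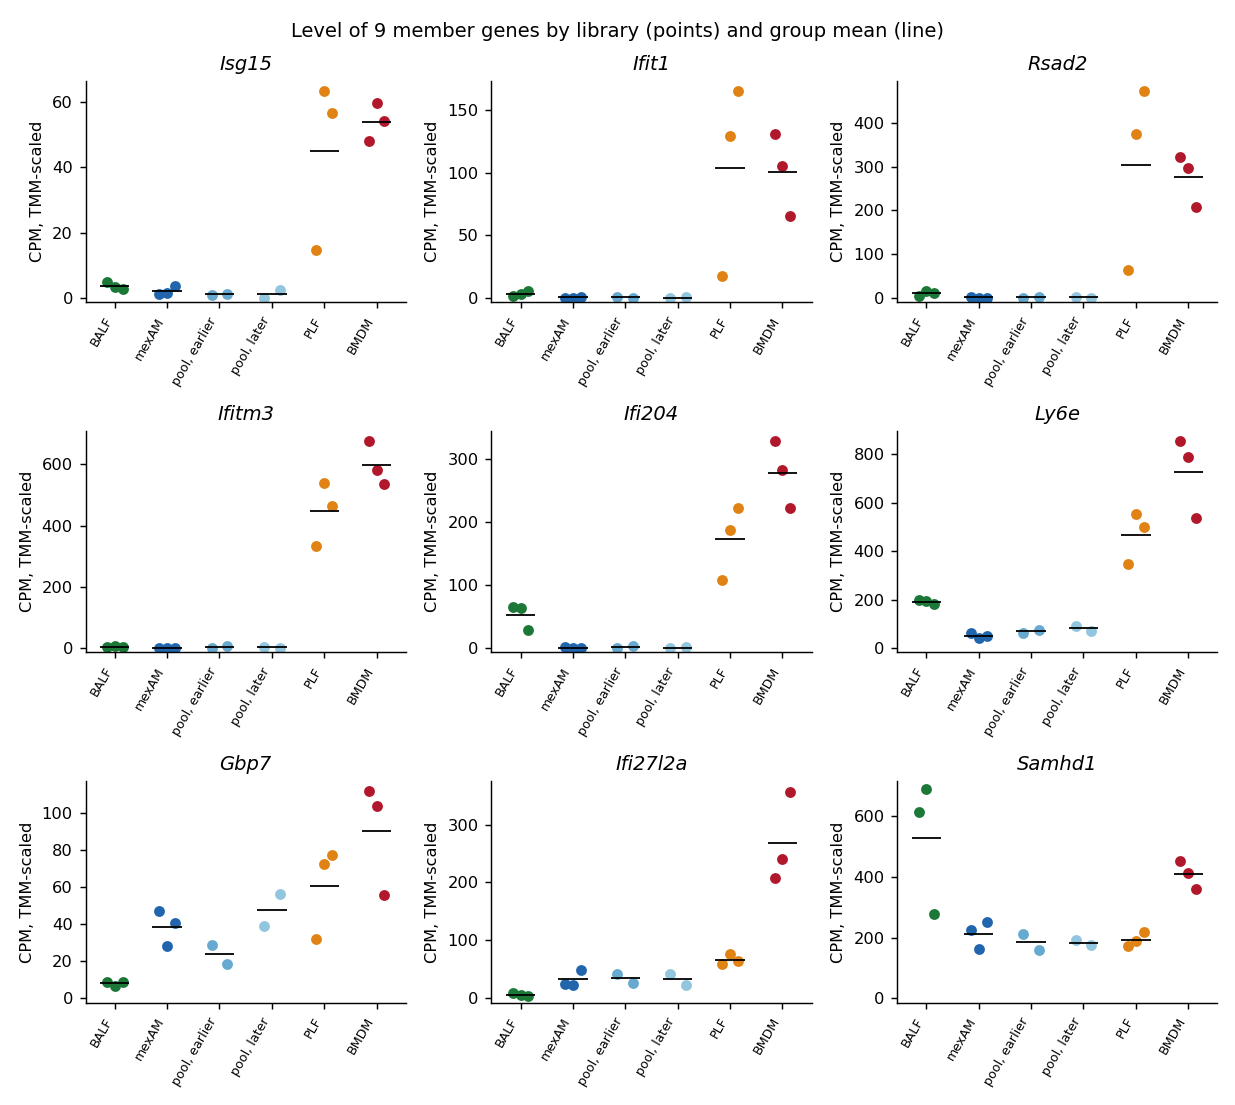
Level in CPM of 9 of the genes by library (points, with the group mean as a line) in BALF, mexAM, earlier and later pool passages, PLF and BMDM. Isg15, Ifit1, Rsad2 and Ifitm3 lie near 0 in all lung-derived libraries, Ifi204 and Ly6e are lower in cultured than in fresh lung cells, Gbp7 and Ifi27l2a are higher, and Samhd1 is highest in BALF of mice 1 and 2.

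Rsad2 (viperin) and Cmpk2 lie next to each other and act on nucleotides, Samhd1 hydrolyses deoxynucleotides, and Isg20 is an exonuclease. Rsad2 (chr12:26442746-26456452, minus strand) was at 5.53, 15.8 and 11.7 CPM in BALF, at 2.93, 0.973 and 0.786 CPM in mexAM, at 63.5, 376 and 472 CPM in PLF and at 321, 297 and 209 CPM in BMDM. BALF lay above mexAM in every mouse, but the difference did not pass the test (-2.79 ± 1.10, edgeR, adjusted p = 0.0752), and DESeq2 called it. BALF minus BMDM was -4.71 ± 0.70 (edgeR, adjusted p = 0.000175). Cmpk2 had no count in BALF or the pools and 38.2 to 58.9 CPM in BMDM, at least 59.4-fold above BALF. Isg20, at 1.80 to 13.0 CPM in BALF and mexAM and 9.41 to 13.98 CPM in BMDM, was not called between either lung group and BMDM.

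Samhd1 (ENSMUSG00000027639, chr2:157097533-157135265, minus strand) ran against the other genes. It was at 615, 689 and 277 CPM in BALF, at 226, 163 and 251 CPM in mexAM, at 172, 188 and 218 CPM in PLF and at 454, 412 and 360 CPM in BMDM. BALF of mice 1 and 2 were the highest of all 16 libraries, and BALF of mouse 4 lay below BMDM. It was the only one of the 40 genes called higher in BALF than in PLF (1.46 ± 0.28, edgeR, adjusted p = 0.0004). It fell in mexAM against BALF by -1.30 ± 0.27 (edgeR, adjusted p = 0.00186) and in the pools, at 161 to 212 CPM, by -1.47 ± 0.30 (edgeR, adjusted p = 0.00152). BALF minus BMDM did not pass (0.37 ± 0.27, edgeR, adjusted p = 0.306), and without BALF of mouse 4 Samhd1 was called. mexAM were lower than BMDM by -0.93 ± 0.27 (edgeR, adjusted p = 0.00985), while mexAM minus PLF was 0.16 ± 0.27 (edgeR, adjusted p = 0.634).

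Of the remaining genes, Ifi27l2a, a small interferon induced membrane protein, rose in culture. BALF held 8.99, 5.63 and 3.59 CPM of it, mexAM 25.2, 23.4 and 49.1 CPM and the pools 23.7 to 42.1 CPM, with every cultured library above every BALF library. The log2 fold change was 2.37 ± 0.40 for mexAM (edgeR, adjusted p = 0.000267) and 2.40 ± 0.44 for the pools (edgeR, adjusted p = 0.000561). BMDM, at 208, 241 and 357 CPM, stayed well above. Trim30a and Slfn2 were, with Samhd1, the genes with a mean over 50 CPM in both BALF and mexAM. Trim30a, which dampens inflammatory signalling, was at 104, 105 and 119 CPM in BALF, 74.4, 74.9 and 54.2 CPM in mexAM and 632, 536 and 363 CPM in BMDM. Fresh and cultured cells did not overlap, yet the difference was not called (-0.69 ± 0.37, edgeR, adjusted p = 0.183). Trim30a was called with no filter on low counts and with only the 2 compared groups fitted. Slfn2, a regulator of leukocyte quiescence, was at 131, 126 and 347 CPM in BALF, so that mouse 4 stood alone, and at 137, 135 and 141 CPM in mexAM. PLF held 257, 371 and 429 CPM and BMDM 334, 415 and 351 CPM, both clear of mexAM. mexAM minus BMDM was -1.40 ± 0.32 (edgeR, adjusted p = 0.00188) and mexAM minus PLF -1.34 ± 0.32 (edgeR, adjusted p = 0.00195). BALF minus BMDM was -0.86 ± 0.31 (edgeR, adjusted p = 0.0418), a call that was lost when any 1 of the 6 libraries other than BALF of mouse 4 was left out (edgeR, adjusted p = 0.0644 to 0.174). Fitting only the 2 compared groups also ended this call of Slfn2. The sum over 5 erythroid markers in BALF was 40.1, 501 and 736 CPM in mice 1, 2 and 4, and its part in the differences between BALF libraries was not tested.

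Rtp4, a chaperone of receptors, was at most 6.28 CPM in lung cells, 13.4, 140 and 112 CPM in PLF and 209, 177 and 159 CPM in BMDM. The log2 fold change was -6.08 ± 0.91 for BALF minus BMDM (edgeR, adjusted p = 0.000187) and -6.93 ± 0.90 for mexAM minus BMDM (edgeR, adjusted p = 4.3e-05). Ifi44 was high in BMDM alone, at 50.2, 51.1 and 28.2 CPM there and 0, 5.76 and 2.36 CPM in PLF, and at most 1.24 CPM in lung libraries. It showed the largest fall of the 40 genes from BMDM to PLF, a log2 fold change of -4.07 ± 0.55 (edgeR, adjusted p = 2.17e-05). Slfn5 was at most 1.92 CPM and Xaf1 at most 0.898 CPM in any lung library, against 67.7 to 110.02 and 17.1 to 21.6 CPM in BMDM. BMDM were above mexAM by a ratio of 275 for Slfn5 (exact 95% interval 75.7 to 2277) and 121 for Xaf1 (21.3 to 4832). Parp14, an ADP-ribosyltransferase, kept 12.1 to 34.1 CPM in lung cells and reached 132 to 223 CPM in BMDM (-2.79 ± 0.33 for BALF, edgeR, adjusted p = 4.53e-06, and -3.22 ± 0.32 for mexAM, edgeR, adjusted p = 4.73e-07). Ifi35 was at 12.4 to 13.5 CPM in BALF, 12.7 to 19.6 CPM in mexAM and 22.9 to 25.3 CPM in BMDM, and mexAM minus BMDM did not pass (-0.57 ± 0.26, edgeR, adjusted p = 0.0855).

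**Figure D3:**
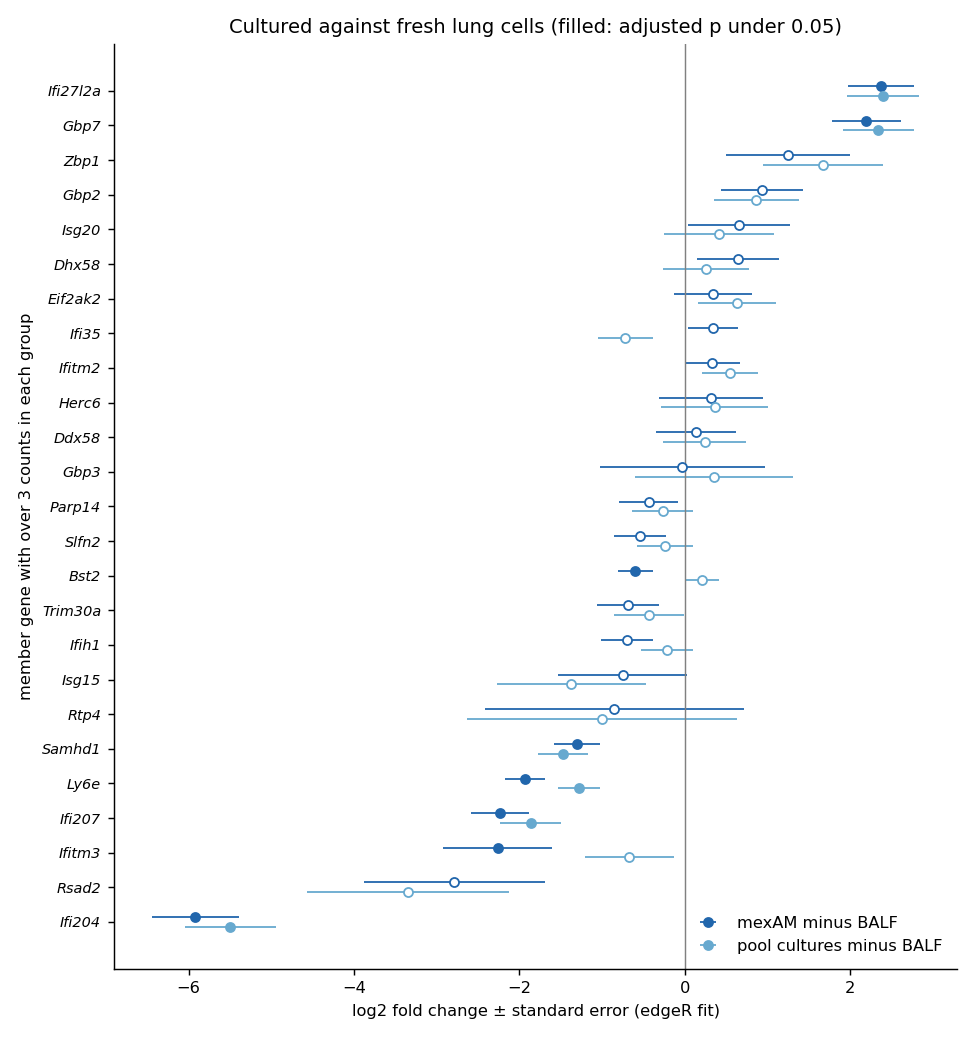
Log2 fold change with its standard error (x axis) of the members with over 3 counts in each group (y axis) for mexAM minus BALF and pool cultures minus BALF, filled where called. Ifi204, Ifi207, Ly6e and Samhd1 are filled on the left and Gbp7 and Ifi27l2a on the right in both, and the 2 comparisons share the BALF libraries.

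No member passed the test between pool cultures and cultures of single mice. In pool cultures against mexAM, 0 of the 40 genes were called by edgeR, against 0.698% of all genes, with 4 at an unadjusted p under 0.05 (Ifitm3, Bst2, Ly6e and Ifi35), and DESeq2 called 1, Bst2 (edgeR log2 fold change 0.81 ± 0.20, adjusted p = 0.0671). A p over the threshold does not show that the cultures were alike, with 2 pools against 3 mice. Between the later and earlier passages, 0 genes were called by edgeR, against 0.00950% of all genes, and 0 by DESeq2. Bst2 and Gbp7 were at an unadjusted p under 0.05, with Bst2 lower in the later passage of both pools and Gbp7 higher in both (1.00 ± 0.43, edgeR, adjusted p = 0.513). Passages 13 and 10 were the later and passages 8 and 5 the earlier ones, so the same stage differed in number between pools.

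The PLF library of mouse 1 stood apart from those of mice 2 and 4. It was the lowest of the 3 in 39 of the 40 genes, against 39.9% of all tested genes, and its level on the log2(CPM + 1) scale was below the mean of the other 2 by a median of -1.73 over the 40 genes and -0.02 over all. Rsad2, at 63.5 CPM against 376 and 472, and Usp18, at 0 against 24.7 and 18.3 CPM, are examples. Gbp3, at 40.8 CPM against 39.5 and 81.5, was the exception. Samhd1 differed little, at 172 CPM against 188 and 218. In the same library, Irf7 was at 6.02 CPM against 47.7 and 31.9 and Irf9 at 34.1 CPM against 119 and 139. Its sums over cell type markers lay close to those of the other libraries for B cells (2684 CPM against 2483 and 2271), mast cells (1952 against 1868 and 1765) and peritoneal macrophages (14071 against 13441 and 15221). They were lower for the dendritic cell list (41.5 CPM against 71.5 and 94.5) and the plasmacytoid dendritic cell list (145 against 247 and 206), in which Siglech, a defining marker, was at 0, 0 and 0.590 CPM. Gm42418, a gene at a ribosomal RNA repeat, took 13.3% of its counts against 4.08% and 3.81%. The part of these in the difference was not tested. Without this library, 36 members were called in mexAM against PLF and 36 in BALF against PLF, against 5640 and 4053 of all genes. PLF against BMDM then gave 15, losing Ly6e, Cmpk2 and Xaf1 and gaining Gbp2, against 3627 of all genes. With all libraries, 57.9%, 40.3% and 36.5% of all genes were called in these comparisons, in that order. Without PLF of mouse 1, 32 in place of 23 members had all lung-derived libraries below the others, against 9.08% of tested genes. No member had all of them above, against 7.12%. BMDM of mouse 4 was likewise the lowest BMDM library in 32 of the 40 genes, against 36.8% of all genes, by a median of -0.54. The sum over 8 neutrophil markers was 2599, 1873 and 5212 CPM in BMDM of mice 1, 2 and 4, and its part was not tested.

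**Figure D4:**
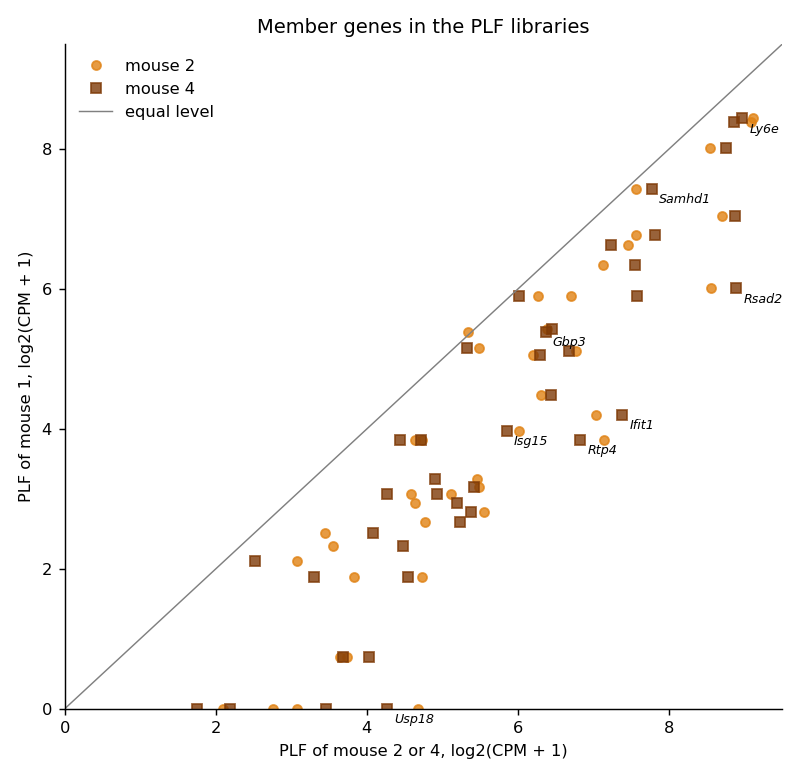
Level of the 40 genes in PLF of mouse 1 (y axis) against PLF of mouse 2 or mouse 4 (x axis), both as log2(CPM + 1). Nearly all points lie below the line of equal level; Gbp3 lies on it for mouse 2, and Samhd1 lies close to it.

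PLF and BMDM differed gene by gene. Beside Oasl1, the called genes were lower in PLF, among them Ifi27l2a (-2.03 ± 0.28, edgeR, adjusted p = 2.45e-05), Bst2 (-2.01 ± 0.19, edgeR, adjusted p = 3.0e-07), Dhx58 (-2.20 ± 0.37, edgeR, adjusted p = 0.00014), Ifit2 (-2.89 ± 0.47, edgeR, adjusted p = 0.00035) and Samhd1 (-1.09 ± 0.27, edgeR, adjusted p = 0.00465). Ifit1, Rsad2 and Isg15 did not pass, with log2 fold changes of 0.04 ± 0.57, 0.13 ± 0.52 and -0.27 ± 0.37. Ifi204 and Gbp3 did not pass either (-0.69 ± 0.28 and 0.76 ± 0.36). The number called moved between 12 and 18 when single libraries were left out, the lowest without BMDM of mouse 1 or of mouse 2. The calls among all genes then lay between 3004 and 3627, against 3652 in the main fit. DESeq2 called 13, losing Oasl1, Oas1a, Cmpk2 and Xaf1, against 3479 of all genes. The share called in the main fit, 42.5% of the members, was near the 36.5% of all genes, so nothing is read from the total.

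The genes that make up the interferon pathway were read from lists of 98 genes beside the members. None of the 9 interferon ligand genes listed passed the filter on low counts. Of these 9, only Ifng had any count, at 1.34, 1.64 and 3.54 CPM in PLF. At the receptor, Ifnar1 was at 11.1, 7.88 and 17.1 CPM in BALF, 2.93, 6.33 and 5.11 CPM in mexAM, 36.1, 48.5 and 59.0 CPM in PLF and 78.2, 74.7 and 60.01 CPM in BMDM. The 4 groups did not overlap, while the pool cultures, at a mean of 7.18 CPM, overlapped BALF. Ifnar1 was lower in mexAM than in BALF (-1.30 ± 0.38, edgeR, adjusted p = 0.016) and lower than in BMDM (-3.83 ± 0.31, edgeR, adjusted p = 2.35e-08), and BALF were lower than BMDM (-2.54 ± 0.30, edgeR, adjusted p = 3.31e-06). Ifnar2, at 76.6 to 101 CPM in BALF and mexAM and 212 to 307 CPM in PLF and BMDM, fell in both lung groups against BMDM (-1.67 ± 0.18 for mexAM and -1.78 ± 0.19 for BALF) and did not pass between them (0.11 ± 0.19). Against PLF the log2 fold change was -3.26 ± 0.32 in mexAM and -1.96 ± 0.31 in BALF for Ifnar1, and -1.51 ± 0.18 and -1.62 ± 0.19 for Ifnar2, all called. All 5 receptor genes tested were lower in each lung group than in BMDM, against 23.0% of all genes lower in mexAM and 19.3% in BALF.

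Irf9, Irf7 and Stat2 were lower in both lung groups than in BMDM. Irf9 was at 10.4, 20.3 and 25.1 CPM in BALF, 15.2, 11.2 and 19.3 CPM in mexAM and 111, 103 and 69.4 CPM in BMDM, a log2 fold change of -2.38 ± 0.47 for BALF (edgeR, adjusted p = 0.000966) and -2.61 ± 0.45 for mexAM (edgeR, adjusted p = 0.000225). Irf7, the factor that amplifies the response, was at 0 to 2.69 CPM in all 10 lung libraries and at 65.9 to 71.4 CPM in BMDM (-5.22 ± 0.70 for BALF and -6.30 ± 0.70 for mexAM). Neither factor passed the test between mexAM and BALF (edgeR, adjusted p = 0.77 for Irf9 and 0.564 for Irf7), and both were lower than in PLF in each lung group. Stat2 was at 8.08 to 14.5 CPM in BALF, 18.1 to 19.9 CPM in mexAM and 45.3 to 55.9 CPM in BMDM, and mexAM minus BALF did not pass (0.82 ± 0.32, edgeR, adjusted p = 0.0641). Its log2 fold change was -2.24 ± 0.30 for BALF minus BMDM (edgeR, adjusted p = 1.51e-05), -1.42 ± 0.26 for mexAM minus BMDM (edgeR, adjusted p = 0.000267) and -0.39 ± 0.28 for mexAM minus PLF (edgeR, adjusted p = 0.246).

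Irf5 and Irf8 were nearly lost in culture. Irf5, which acts below Toll-like receptors, was at 46.3, 41.7 and 105 CPM in BALF, whereas mexAM held 2.34, 1.46 and 1.18 CPM (-5.27 ± 0.43, edgeR, adjusted p = 1.59e-07). Irf8, a myeloid lineage factor, was at 123, 141 and 127 CPM in BALF and 13.5, 5.35 and 9.82 CPM in mexAM (-3.77 ± 0.31, edgeR, adjusted p = 1.6e-07). The pool cultures held 0.958 to 3.71 CPM of Irf5 and 5.68 to 17.3 CPM of Irf8. BALF and PLF overlapped for both genes, and BALF and BMDM overlapped for Irf5 but not for Irf8. Ikbke, a kinase that activates Irf3 and Irf7, was at 0 to 2.92 CPM in lung libraries and 38.4 to 48.5 CPM in BMDM. Of the sensor adaptors, Tmem173 (STING) and Tlr3, a receptor of double stranded RNA, rose in mexAM against BALF (1.02 ± 0.30, edgeR, adjusted p = 0.0171, and 1.87 ± 0.46, edgeR, adjusted p = 0.0054) and Ticam1 (TRIF) fell (-1.34 ± 0.34, edgeR, adjusted p = 0.00673). Those were the 3 called genes among 11 tested in that list, a share near the 30.0% of all genes called in this comparison. Of 11 negative regulators, 3 rose and 3 fell in mexAM against BALF, against 15.2% of all genes higher and 14.8% lower, among them Rnaseh2b, part of a nuclease of RNA and DNA hybrids (1.36 ± 0.27, edgeR, adjusted p = 0.00115), Socs1, an inhibitor of the receptor kinases (-3.67 ± 1.07, edgeR, adjusted p = 0.0157), and Tnfaip3, an inhibitor of NF-kB (-2.33 ± 0.51, edgeR, adjusted p = 0.00354). Of the receptor kinases and their targets, Tyk2 rose (0.95 ± 0.32, edgeR, adjusted p = 0.031) and Stat3 fell (-1.08 ± 0.24, edgeR, adjusted p = 0.00284). Of 7 regulatory factors, Irf2 fell beside Irf5 and Irf8 (-1.04 ± 0.18).

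**Figure D5:**
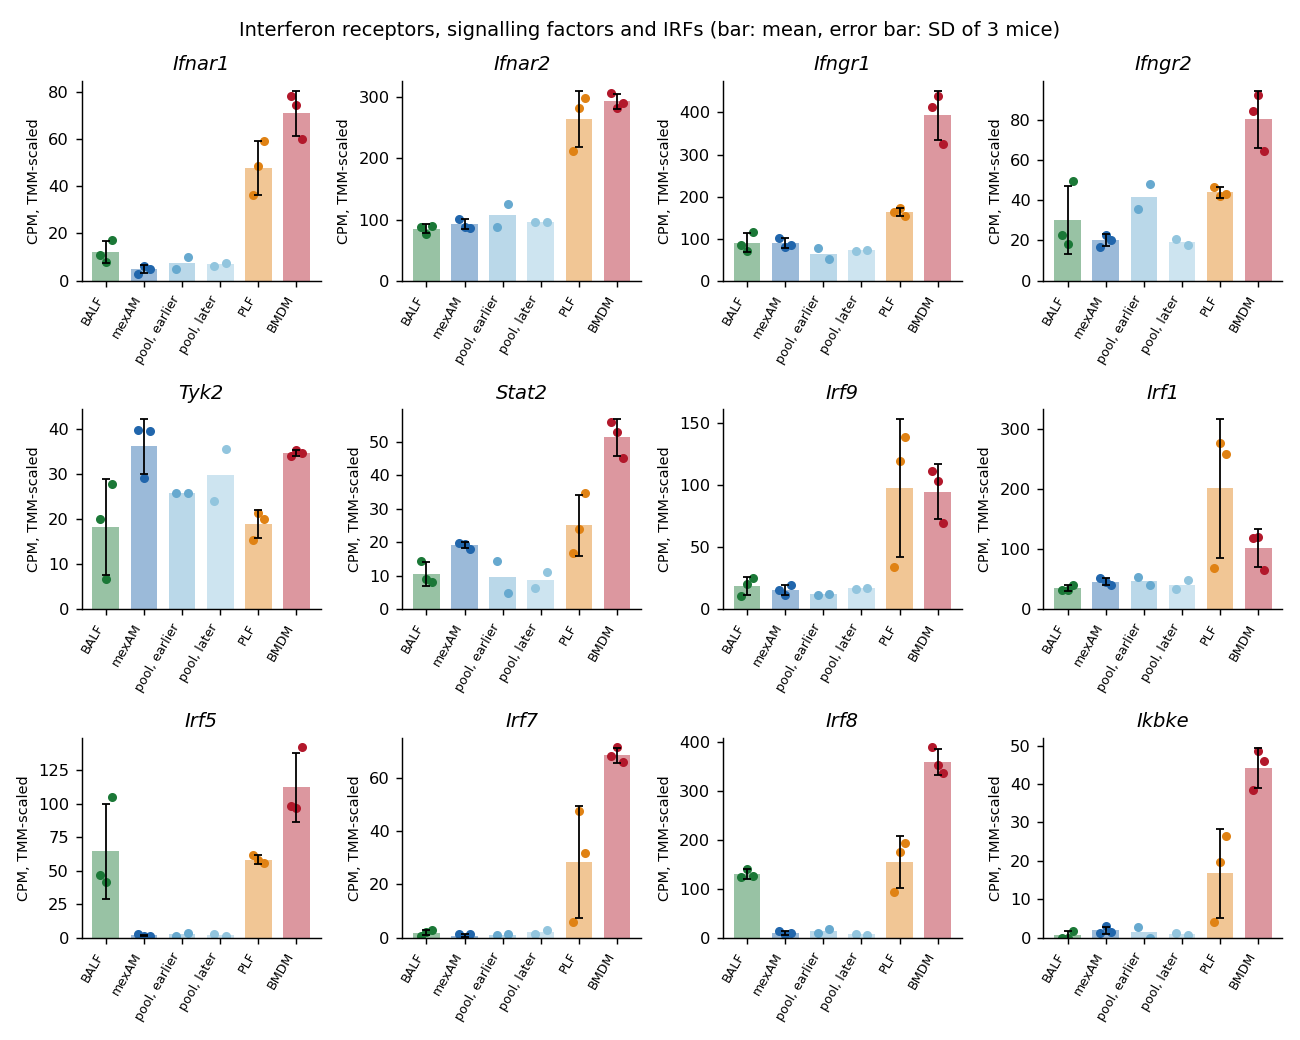
Level in CPM of 12 pathway genes by library (points) with the group mean (bars) and SD of 3 mice (error bars; none for the pools, with 2 libraries each). Ifnar1, Irf9, Irf7 and Ikbke are low in lung-derived groups, Stat2 is higher in BMDM than in both lung groups, and Irf5 and Irf8 are high in BALF and low in its cultures.

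Other interferon induced genes from a list of 30, of which 26 were tested, lay as the members did. Of these, 25 were lower in mexAM than in BMDM and 24 lower in BALF than in BMDM, 20 were lower in mexAM than in PLF and 18 lower in BALF than in PLF, against 23.0%, 19.3%, 29.6% and 20.8% of all tested genes. In mexAM against BALF, 3 were lower, namely Lgals9, Psmb8 and Apobec3, and Lgals3bp was higher, against 30.0% of all genes called. The largest level was that of Ifi203, a p200 family gene, at 227, 874 and 1023 CPM in PLF, 308, 343 and 183 CPM in BMDM and at most 8.98 CPM in any lung library. Of the 8 interferon gamma targets tested, 7 were lower in mexAM than in BMDM and 1, Cd274 (PD-L1), was higher (1.84 ± 0.47, edgeR, adjusted p = 0.00638), against 23.0% of all tested genes lower and 21.5% higher. Cd274 was at 154 to 369 CPM in BALF, 82.5 to 203 CPM in mexAM and 32.7 to 41.1 CPM in BMDM, and it is named as the exception after its values were seen. Cxcl10, a chemokine of this group, was at 2.25 to 11.7 CPM in BALF, 0 to 2.92 CPM in mexAM and 24.7 to 93.0 CPM in BMDM. Monocyte markers moved with these differences. The sum over 4 of them was 505 to 646 CPM in PLF and BMDM and at most 7.61 CPM in lung libraries, and its part in the result was not tested.

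Some members share 3' sequence with another gene, so the division of reads between the copies is uncertain. Of the 65-base windows in the last 500 bases of their transcripts, 49.5% of Oas1a also occurred in Oas1g, 36.5% of Ifitm2 in Ifitm3 and pseudogenes, 11.9% of Ifit3 in Ifit3b and 6.9% of Samhd1 in other genes. The shares of Ifitm3, Gbp3, Xaf1, Mx1 and Ifi207 were 0.43% to 4.36%, and those of the other 31 members were 0.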

How the data were processed

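RNA of 16 samples was sequenced from the 3' end (QuantSeq 3' FWD), per the labels' protocols. The deposited files hold raw counts per Ensembl gene and library, and GRCm38 is the build named in the submitters' processing notes. Aligner, counter, annotation, strand setting and any collapsing of molecular identifiers were not given in these sources. Intervals therefore cover counting error only. Rows for reads outside genes (10.6% to 29.9% of reads) and ambiguous reads (0.451% to 0.625%) were left out of totals and tests.

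Genes were named with GENCODE M21, and 419 identifiers with 0.0338% of counts stayed unnamed. Genes were tested with edgeR 4.0.16 (filterByExpr, TMM, robust quasi-likelihood fit, R 4.3.3) and Benjamini-Hochberg adjustment. The 12 libraries of single mice were fitted together (10011 genes) for 6 comparisons. The passages of each pool were summed for pool cultures against mexAM and BALF (10602 genes), and all 16 libraries were fitted for passages (10527 genes). The standard error is the log2 fold change divided by the square root of F. A group without counts was set to 3 counts over the group, and groups with 1 to 3 counts got an exact ratio interval. The bound from 3 counts leaves out the counting error of the other group. The edgeR script was tested on simulated data. Labels name the same mouse across BALF, PLF, BMDM and mexAM, so numbers pair samples. Over 18 such pairs the correlation of deviations was -0.118 to 0.22 (median -0.0207). Alternatives were DESeq2 1.42.0, library totals alone, no filter, only the compared groups, the replicate block and single libraries left out. Replicates are separate mice, or pools in the pool groups. The passage fit has 10 residual degrees of freedom, most of them from the groups of single mice, so its p-values rest mainly on the spread between mice. The members and lists were chosen with earlier results of these data known. Called members that reached 10 CPM in a group were named with levels, and statistics were given for some of their comparisons only. Pathway genes were named where called and at 10 CPM or more in a group, which need not be one of those compared. At most 4 a list and comparison were taken by size of change, beside Ifnar1, Ifnar2, Stat2, Irf9 and Irf7. Some results are not reported here.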

Additional observations from a re-analysis of the deposited data

How the results depend on the processing

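No member called in the main fit reversed its direction in an alternative run that tested it. Directions of the members not called and of the pathway genes were not compared between runs. When single libraries were left out, the number of members called ranged from 6 to 8 in mexAM against BALF, 37 to 38 in mexAM against BMDM, 30 to 36 in mexAM against PLF, 34 to 38 in BALF against BMDM, 26 to 36 in BALF against PLF, 12 to 18 in PLF against BMDM and 6 to 7 in pool cultures against BALF, and stayed at 0 in pool cultures against mexAM and in later against earlier passage. Over all genes the left-out fits up to pool cultures against BALF called, in that order, 2288 to 2738, 3744 to 4419, 5232 to 5640, 3142 to 3573, 3391 to 4053, 3004 to 3627 and 1604 to 2427. The main fits called 3007, 4462, 5800, 3747, 4031, 3652 and 2757. With only the 2 compared groups, BALF against PLF gave 21 members in place of 32, and mexAM against PLF gave 22 in place of 32. In these fits 14 and 12 members were not tested. Of all genes, 3536 and 5126 were then called, in place of 4031 and 5800. In mexAM against BALF such a fit gave 8 members in place of 9, with 22 members not tested. It called 2585 of all genes in place of 3007. DESeq2 called 1 member in place of 0 in pool cultures against mexAM, and the cause was not tested. On plain library totals the summed level in BALF was 1233 CPM in place of 1405. With the mouse as a replicate block the counts were 8, 38, 32, 38, 32 and 18 in the first 6 comparisons and 0 for passages. The same fits called 2833, 4338, 5633, 3623, 3885 and 3506 of all genes, and 0 for passages. The block ended the call of Bst2 in mexAM against BALF and of Isg20 in BALF against PLF (edgeR, adjusted p = 0.0508) and no other member's. With library totals and no TMM the median log2 fold change of all genes was 0.217 in mexAM against BALF, -0.316 in BALF against BMDM, -0.266 in BALF against PLF and 0.202 in pool cultures against BALF, where it was 0.008, -0.026, -0.013 and 0.003 with TMM. The share of called genes that were higher was then 67.38%, 30.53%, 33.08% and 67.67%, against 50.62%, 48.52%, 48.42% and 52.45%. Over all genes, pool cultures against mexAM gave 74 calls (6 without pool 2, 9 without pool 1, 28 and 48 without mexAM of mouse 1 or 4, and up to 380 with no filter) and the passages 1 (0 to 80). In BALF and mexAM 20 members had a mean under 5 CPM, where a few counts set the value.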
